A study of Mus musculus with 50 samples.

Results

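The 10 genes described here encode proteins of the Z-disc and of the junctions between heart muscle cells that are known from work on stretch and load. They are the muscle ankyrin repeat genes Ankrd1, Ankrd2 and Ankrd23, the Xin repeat genes Xirp1 and Xirp2, the LIM-domain genes Csrp3, Fhl1 and Fhl2, the scaffold gene Nrap and the titin cap gene Tcap. They were picked by gene name from the 35717 genes of the deposited table, and all 10 names were found. Of these, 9 passed a filter on low values, as did 11628 genes in all, and Ankrd2 did not. RNA came from 50 left ventricles, each of a 40 week old mouse on the C57BL/6J background. The series asks how extra LARP6 in heart muscle cells changes the response of the heart to angiotensin II (Ang II), a vasoconstrictor hormone used to put load on the heart. The 13 Tg Ang II mice (7 female, 6 male) carried a transgene for LARP6, an RNA-binding protein, and received Ang II at 1000 ng/kg/min for 21 days. The 12 Tg saline mice (6 female, 6 male) carried the same transgene and received sterile saline for 21 days. The 14 WT Ang II mice (7 female, 7 male) were labelled as littermates without the transgene. They received the same dose of Ang II for as long. Larp6 in library 329 of this group lay in the range of the Tg hearts, as given below. The 11 WT saline mice (5 female, 6 male) were littermates given saline. The series title places the overexpression in cardiomyocytes. The promoter that drives it and the number of founder lines are not given in the sources used here.

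The Z-disc joins neighbouring sarcomeres and holds the ends of the actin filaments and of titin, the giant elastic protein of muscle. Muscle ankyrin repeat proteins bind titin along the sarcomere and can also enter the nucleus, and Ankrd1 mRNA has long served as a marker of load on the ventricle. Xin repeat proteins bind actin filaments at the intercalated disc, the junction through which force passes from cell to cell. The LIM proteins Csrp3, Fhl1 and Fhl2 tie titin and the actin crosslinker actinin to signalling molecules, Nrap is a scaffold on which new myofibrils assemble, and Tcap caps the end of titin in the Z-disc.

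Promoter sequences of 8 of the 10 genes were matched by symbol in RefSeq (build GRCm38.p6), at 12 start sites, each as 300 bases from upstream of the start site into the gene. The 4 shown belong to genes that were called in the comparisons below and hold a motif marked here. Ankrd1 and Ankrd23 were higher with Ang II in WT hearts and with the transgene. Xirp2 was higher with Ang II in both genotypes, and Fhl1 was higher in Tg than in WT hearts under either infusion. Capitals mark the MCAT motif (CATTCC on either strand, a motif bound by TEAD factors) in Ankrd1 and Ankrd23, the CArG box (bound by serum response factor) in Fhl1 and the MEF2 site in Xirp2, and each sequence reads 5′ to 3′ along the strand of its gene.
Ankrd1, chr19:36119795-36120094, minus strand: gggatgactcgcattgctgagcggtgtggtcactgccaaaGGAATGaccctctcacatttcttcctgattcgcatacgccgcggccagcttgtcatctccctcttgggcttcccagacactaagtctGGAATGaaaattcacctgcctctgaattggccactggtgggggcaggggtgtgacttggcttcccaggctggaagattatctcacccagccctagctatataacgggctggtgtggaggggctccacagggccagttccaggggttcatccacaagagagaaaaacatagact
Ankrd23, chr1:36535690-36535989, minus strand: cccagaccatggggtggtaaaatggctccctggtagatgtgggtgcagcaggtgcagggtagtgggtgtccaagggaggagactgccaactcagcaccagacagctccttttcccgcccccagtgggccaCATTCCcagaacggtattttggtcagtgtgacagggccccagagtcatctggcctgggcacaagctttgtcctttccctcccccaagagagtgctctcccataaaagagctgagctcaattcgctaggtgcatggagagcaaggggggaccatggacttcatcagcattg
Xirp2, chr2:67445752-67446051, plus strand: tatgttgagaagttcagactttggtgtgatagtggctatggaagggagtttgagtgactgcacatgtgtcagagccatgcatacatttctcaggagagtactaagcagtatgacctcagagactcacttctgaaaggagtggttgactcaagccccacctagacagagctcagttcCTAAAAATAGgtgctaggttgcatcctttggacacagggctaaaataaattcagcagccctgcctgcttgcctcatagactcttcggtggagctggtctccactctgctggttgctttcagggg
Fhl1, chrX:56779433-56779732, plus strand: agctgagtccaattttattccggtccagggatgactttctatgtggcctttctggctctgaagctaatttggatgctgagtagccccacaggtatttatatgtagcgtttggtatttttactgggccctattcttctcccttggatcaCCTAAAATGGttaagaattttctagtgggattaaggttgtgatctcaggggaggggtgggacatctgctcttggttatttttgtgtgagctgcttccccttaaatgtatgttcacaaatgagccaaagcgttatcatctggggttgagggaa

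Counting from the start site as 0, the Ankrd1 promoter held the MCAT motif at bases -210 to -205 and again at -123 to -118, both on the opposite strand. In the printed Ankrd23 promoter it lay at -120 to -115, and the window of the other Ankrd23 start site, at chr1:36536507-36536806, held it at 36 to 41. These were the 3 member promoters with the motif, of 12, while 14.7% of all 32851 promoters held it. The CArG box lay at -102 to -93 in Fhl1 and in the windows of both start sites of Fhl2, and 1.63% of all promoters held one. The MEF2 site lay at -74 to -65 in Xirp2 and at -31 to -22 in Fhl2, where it overlapped a TATAAA match, against 3.19% of all promoters. Xirp2 also held the AP-1 motif (TGACTCA or TGAGTCA) at -107 to -101, as did 5.2% of all promoters, and a TATAAA match was found in windows of Ankrd2, Fhl1 and Fhl2, against 13.6%. No other MCAT, CArG, MEF2, AP-1 or TATAAA match was found in the member windows. Those of Csrp3 and Nrap, which were also called higher with Ang II and with the transgene, held none. Such a match is a run of letters and not a measured binding site.

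Counts summed to between 53877400 and 91579300 in the 50 libraries, of which transcripts of the mitochondrial genome took 28.1% to 38.8%. The median of that share was 31.4% in Tg Ang II, 32.1% in Tg saline, 33.6% in WT Ang II and 36.0% in WT saline libraries, and its part in the member values was not tested. The tested members averaged between 11812 counts per library (Fhl1) and 209370 (Ankrd1), so that counting error alone was at most 0.92% of a mean. Levels are the authors' FPKM values (fragments normalised to transcript length and library size) divided by a scaling factor per library, here called scaled FPKM. Each library carries its own number and was taken as a separate animal. Larp6 itself was measured at 588 to 1180 scaled FPKM in Tg Ang II, 444 to 1631 in Tg saline, 19.6 to 1004 in WT Ang II and 5.61 to 63.7 in WT saline hearts. The value of 1004 belongs to library 329, labelled as a WT Ang II male, whose column in the table carries the letters of a Tg animal. The other 13 WT Ang II libraries reached at most 62.9. Library 847, labelled as a Tg Ang II male, stood at 1119, though its column carries the letters of a WT animal. Both were kept under their labels, and calls of the 10 genes that are lost without both are given with and without them.

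Tcap led in both WT groups, at a mean of 873 ± 169 in WT Ang II and 848 ± 250 in WT saline hearts (SD, n = 14 and 11). Ankrd1 led in both Tg groups, at 1505 ± 402 in Tg Ang II and 1293 ± 268 in Tg saline hearts (n = 13 and 12). Below Tcap and Ankrd1, the order of the means was Fhl2, Csrp3, Ankrd23 and Nrap in both Tg groups and in WT Ang II hearts, although Ankrd1 lay above Fhl2 in only 4 of 14 WT Ang II libraries. Fhl1, Xirp1 and Xirp2 had lower means than these 6 in every group. These 3 changed places with the group: Fhl1 lay above Xirp2 in 9 of 13 Tg Ang II libraries, while Xirp2 lay above Xirp1 in all 14 WT Ang II libraries. In WT saline hearts Ankrd23 and Nrap were not told apart, since Nrap was the higher in 6 of 11 libraries, nor were Ankrd1 and Csrp3, with Ankrd1 the higher in 6 of 11. Coordinates given below are those of the table, whose build is not given in the sources used here; in 8 of the 10 genes, all but Ankrd1 and Xirp2, they equal those of GENCODE M21.

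**Figure D1:**
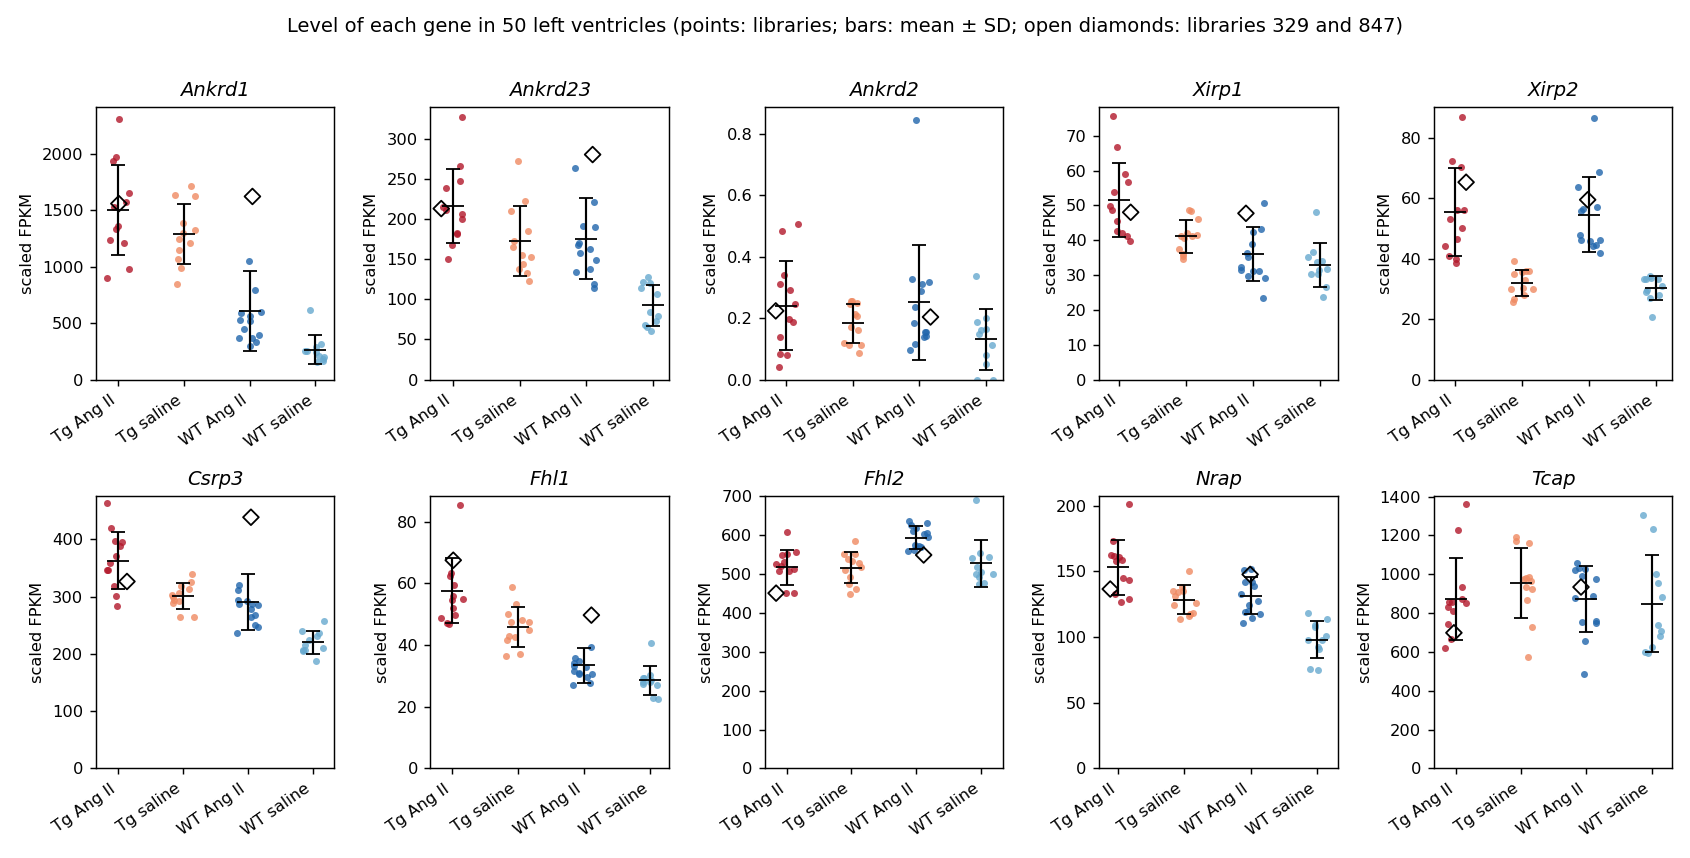
Level of each gene (vertical axis, scaled FPKM from 0) in each of 50 libraries, by group from left to right: Tg Ang II, Tg saline, WT Ang II, WT saline; black bars give the mean and SD, and open diamonds are libraries 329 and 847. Ankrd1 is at 846 or more in every Tg library, Xirp2 is high in both Ang II groups and low in both saline groups, and Tcap covers a like range in all 4.

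A gene was called at a Benjamini-Hochberg adjusted p under 0.05 in the quasi-likelihood test of edgeR across all genes tested. Most of the 9 tested genes rose with Ang II in WT hearts, and most rose with the transgene. With Ang II in WT hearts 7 of 9 passed the test as higher and none as lower; of all genes tested, 18.6% were called and 9.71% were called higher. With the transgene under saline 6 of 9 rose and none fell, where 40.6% of all genes were called and 20.4% were called higher. Ankrd1, Ankrd23, Csrp3, Nrap and Fhl1 were called higher in both comparisons, Xirp2 and Fhl2 with Ang II alone, Xirp1 with the transgene alone and Tcap in neither; both comparisons share the WT saline hearts. In Tg hearts Ang II raised 5 of 9, Xirp2, Xirp1, Fhl1, Csrp3 and Nrap, against 8.93% of all genes called and 4.88% called higher. Xirp2, Csrp3, Fhl1 and Nrap were called higher with Ang II in both genotypes, as were 2.61% of all genes. Between Tg and WT hearts under Ang II 6 rose and Fhl2 fell, against 32.8% of all genes called, 16.4% higher and 16.4% lower. Without libraries 329 and 847 the numbers of members called were 6, 6, 5 and 7 in these 4 comparisons.

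The median log2 fold change of the 9 genes was 0.40 with Ang II in WT, 0.41 with the transgene under saline, 0.27 with Ang II in Tg and 0.31 with the transgene under Ang II. The median over all 11628 genes lay between -0.01 and 0.00 in each of these. In bulk tissue, fewer cells of a type and less RNA per cell cannot be told apart. The summed level of 11 cardiomyocyte markers ranged from 17779 to 21985 scaled FPKM in Tg Ang II and from 18199 to 22377 in Tg saline hearts. It ranged from 19458 to 23619 in WT Ang II and from 20461 to 23731 in WT saline hearts. Of these markers 8 of 11 fell with the transgene under saline, 9 fell and 1 rose with it under Ang II, 1 rose with Ang II in Tg (none without libraries 329 and 847) and none passed the test with Ang II in WT. The part of cell makeup in the member values was not tested.

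**Figure D2:**
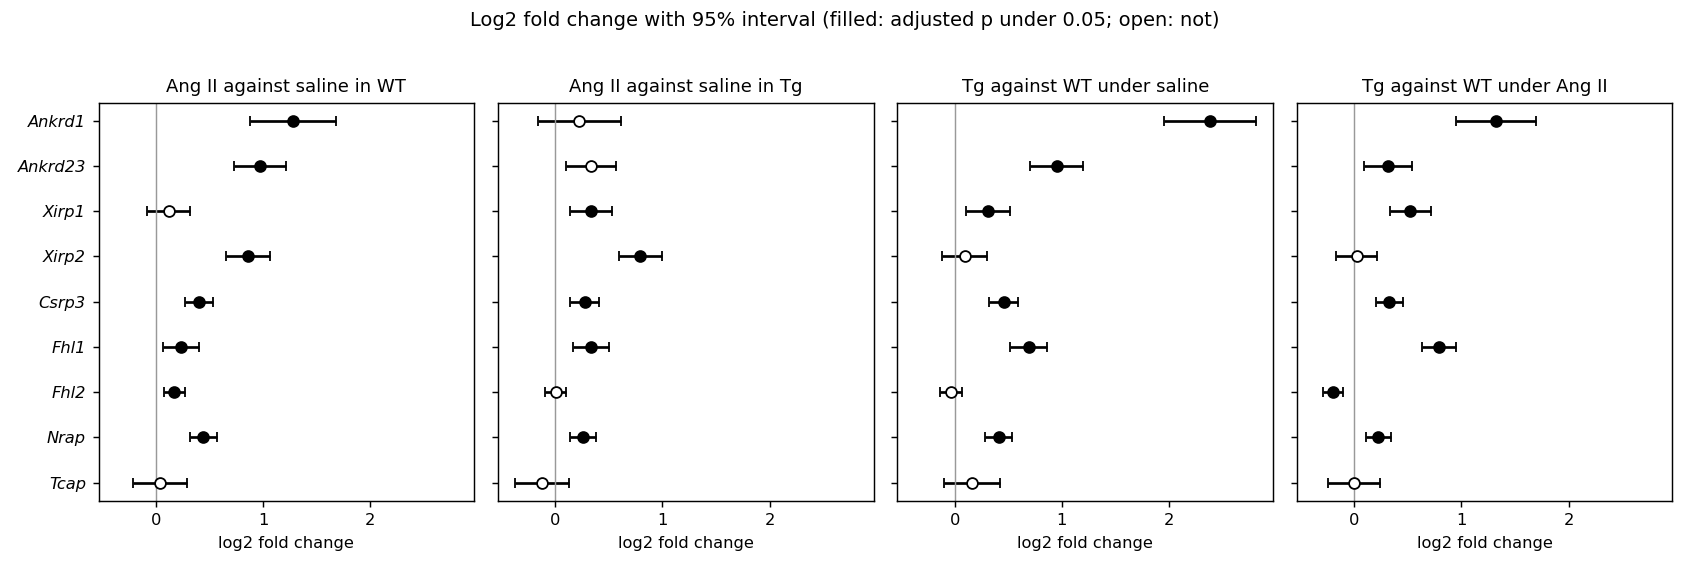
Log2 fold change (horizontal axis) of the 9 tested genes (rows) in 4 comparisons (panels), with approximate 95% intervals; filled points passed the test at an adjusted p under 0.05 and open points did not. Ankrd1 has the largest value in 3 of the panels, and Xirp2 has a large value in both Ang II panels and none apart from 0 in both transgene panels.

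Ankrd1 (ENSMUSG00000024803, chromosome 19, 36111961 to 36119910, minus strand) encodes a titin-binding ankyrin repeat protein that also acts on transcription. Its lowest, median and highest levels were 899, 1532 and 2310 scaled FPKM in Tg Ang II hearts and 846, 1274 and 1714 in Tg saline hearts. They were 302, 527 and 1623 in WT Ang II hearts and 157, 248 and 618 in WT saline hearts. Every Tg saline heart lay above every WT saline heart (groups did not overlap in 4.08% of all genes tested), while 3 of 14 WT Ang II hearts lay above the highest WT saline heart. The 1623 is library 329, and without it the highest WT Ang II heart stood at 1050.0.

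Ankrd1 rose 5.21-fold with the transgene under saline (log2 fold change 2.38 ± 0.22 SE, adjusted p = 1.30e-11), and with Ang II in WT hearts it rose 2.43-fold (1.28 ± 0.20, adjusted p = 1.68e-05). In Tg hearts Ang II gave 0.22 ± 0.20 (95% interval -0.16 to 0.61), which did not pass the test (adjusted p = 0.540). Under Ang II it was 2.51-fold higher in Tg than in WT hearts (1.33 ± 0.19, adjusted p = 5.66e-07). The difference of the Ang II responses, Tg minus WT, was -1.06 ± 0.28 and did not pass the correction over all genes (adjusted p = 0.123). Without libraries 329 and 847 the response in WT was 1.09 and the difference -0.86 (adjusted p = 0.254).

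Ankrd23 (ENSMUSG00000067653, chromosome 1, 36530188 to 36536883, minus strand), which encodes a muscle ankyrin repeat protein of the titin-bound kind, rose about equally with each. It stood at 150, 211 and 326 scaled FPKM (lowest, median, highest) in Tg Ang II hearts and at 123, 160 and 272 in Tg saline hearts. In WT Ang II hearts these were 114, 165 and 280, and in WT saline hearts 60.7, 84.2 and 127. The WT saline hearts stood apart at the low end: 12 of 14 WT Ang II hearts and 11 of 12 Tg saline hearts lay above the highest of them. Ankrd23 shares its strand and part of its span with Gm42417, which averaged 774 counts per library beside 34452 for Ankrd23.

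Ang II in WT hearts raised Ankrd23 1.96-fold (0.97 ± 0.12, adjusted p = 3.86e-07) and the transgene under saline raised it 1.94-fold (0.95 ± 0.13, adjusted p = 5.88e-08). In Tg hearts Ang II gave 0.33 ± 0.12 (adjusted p = 0.0728), a value that DESeq2 called (adjusted p = 0.0484). It also passed without Tg saline library 153 (0.39) or 965 (0.40), and with a block for clusters of neighbouring library numbers (0.51, adjusted p = 0.0203). Tg hearts under Ang II were 1.24-fold above WT hearts (0.31 ± 0.11, adjusted p = 0.0298), a call lost without any 1 of libraries 238, 296, 328, 715, 720 and 722, where the value was 0.26 to 0.29, and without sex as a term (0.30, adjusted p = 0.0845). The difference of the Ang II responses, Tg minus WT, was -0.64 ± 0.17, with an adjusted p of 0.123 in edgeR and of 0.0410 in DESeq2. Without libraries 329 and 847 the difference was -0.57 in edgeR (adjusted p = 0.273). Tg against WT hearts under Ang II then gave 0.38 in edgeR (adjusted p = 0.00943).

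Ankrd2 (ENSMUSG00000025172, chromosome 19, 42036000 to 42045110, plus strand), an ankyrin repeat gene known mainly from slow skeletal muscle, was close to the limit of detection. Counts ran from 5 to 55 in Tg Ang II, 7 to 26 in Tg saline, 10 to 83 in WT Ang II and 0 to 26 in WT saline libraries, where 2 of 11 had none. The means were 0.24 ± 0.15 scaled FPKM in Tg Ang II, 0.18 ± 0.06 in Tg saline, 0.25 ± 0.19 in WT Ang II and 0.13 ± 0.10 in WT saline hearts (SD, n = 13, 12, 14 and 11). In a fit without the filter on low values, Ang II in WT gave 1.06 ± 0.39 (adjusted p = 0.101) and the transgene under saline 0.64 ± 0.40 (adjusted p = 0.356). The unadjusted p with Ang II in WT was 0.00908. Counting error was 23.2% of the mean count, while the SD between hearts was 60.2% of the mean level in Tg Ang II, 34.6% in Tg saline, 74.8% in WT Ang II and 74.9% in WT saline hearts.

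The Xin repeat genes gave different patterns of calls. Xirp2 (ENSMUSG00000027022, chromosome 2, 67173834 to 67526615, plus strand), whose product binds actin and actinin at the intercalated disc and Z-disc, followed Ang II in both genotypes. Its lowest, median and highest levels were 38.7, 53.2 and 86.9 scaled FPKM in Tg Ang II hearts, against 25.8, 31.7 and 39.1 in Tg saline hearts. In WT hearts they were 41.9, 51.7 and 86.6 with Ang II, against 20.9, 31.1 and 34.3 with saline. No WT Ang II heart overlapped any WT saline heart, which held for 0.232% of all genes tested, and 12 of 13 Tg Ang II hearts lay above the highest Tg saline heart.

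Ang II raised Xirp2 1.82-fold in WT hearts (0.86 ± 0.10, adjusted p = 2.33e-07, rank 6 by p of all genes tested). In Tg hearts it raised Xirp2 1.74-fold (0.79 ± 0.10, adjusted p = 2.79e-06, rank 3). The difference between these responses, Tg minus WT, was -0.07 ± 0.14 (95% interval -0.35 to 0.21, adjusted p = 0.901). The transgene gave 0.09 ± 0.11 under saline (interval -0.11 to 0.30) and 0.03 ± 0.10 under Ang II (interval -0.17 to 0.22), neither past the test. In females alone the rise in Tg hearts was 0.68 and did not pass the test (adjusted p = 0.0851), in a fit that called 6 genes in all. The table's entry for Xirp2 begins far upstream of the GENCODE gene and overlaps 7 other annotated genes, of which Gm13601 averaged 0.24 counts per library and the others have no value here.

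Xirp1 (ENSMUSG00000079243, chromosome 9, 120013755 to 120023598, minus strand) encodes Xin, the founding protein of the family, and was raised by the transgene. Its levels were 39.8, 48.7 and 75.7 scaled FPKM in Tg Ang II and 34.6, 41.2 and 48.6 in Tg saline hearts, against 23.5, 33.9 and 50.8 in WT Ang II and 23.8, 31.6 and 48.2 in WT saline hearts (lowest, median, highest). All 4 groups overlapped, and 7 of 13 Tg Ang II hearts lay above the highest Tg saline heart. The transgene raised Xirp1 1.24-fold under saline (0.31 ± 0.11, adjusted p = 0.0159) and 1.44-fold under Ang II (0.52 ± 0.10, adjusted p = 3.98e-05).

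With Ang II, Xirp1 in WT hearts gave 0.12 ± 0.10 (interval -0.08 to 0.32, adjusted p = 0.431), while in Tg hearts it rose 1.26-fold (0.33 ± 0.10, adjusted p = 0.0305). The difference of these responses, 0.21 ± 0.14, did not pass the test (adjusted p = 0.638). The call in Tg hearts was lost without any 1 of libraries 238, 528, 715, 965 and 969, with values of 0.28 to 0.32 and adjusted p of 0.0505 to 0.0832, and with the block for clusters of neighbouring library numbers (0.39, adjusted p = 0.0542). Xirp1 shares its strand and part of its span with Cx3cr1, a macrophage receptor gene with a mean of 247 counts per library beside 19202 for Xirp1.

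**Figure D3:**
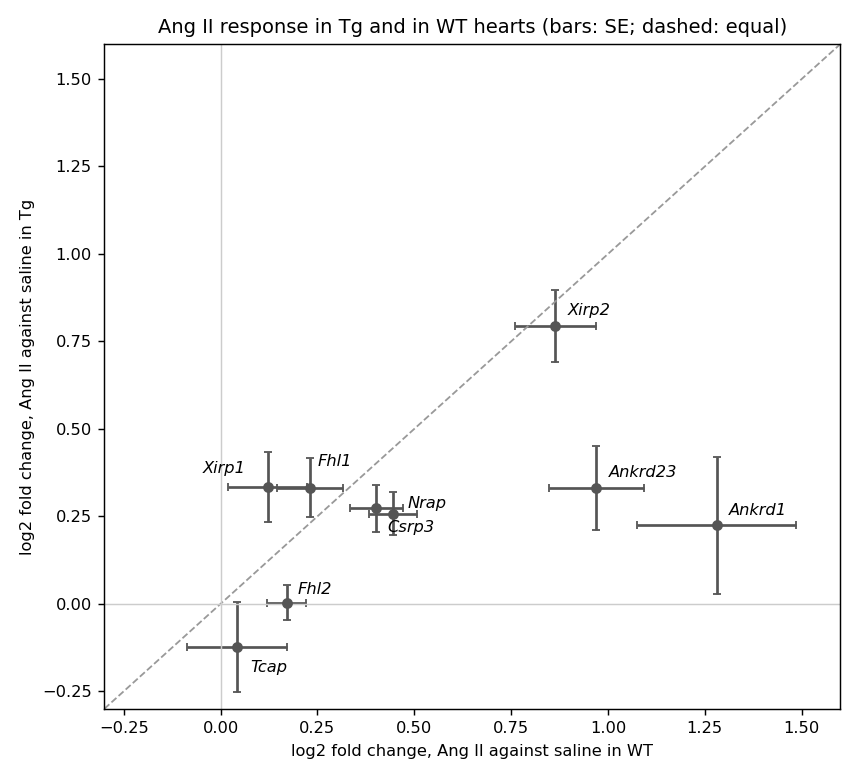
Log2 fold change of each tested gene with Ang II in Tg hearts (vertical axis) against that in WT hearts (horizontal axis), with SE bars and a dashed line of equal response. Xirp2 lies on the line near 0.8 to 0.9, Ankrd1 and Ankrd23 lie below it, and Xirp1 and Fhl1 lie a little above it, though no difference between the genotypes passed the test.

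Of the LIM-domain genes, Csrp3 and Fhl1 rose with the transgene under either infusion and Fhl2 under neither. Csrp3 (ENSMUSG00000030470, chromosome 7, 48830398 to 48848033, minus strand) encodes muscle LIM protein, a Z-disc protein whose loss leads to dilated hearts in mice. Its levels were 284, 359 and 462 scaled FPKM in Tg Ang II and 264, 301 and 340 in Tg saline hearts. They were 237, 286 and 439 in WT Ang II and 187, 215 and 258 in WT saline hearts, the 439 being library 329. All 12 Tg saline hearts lay above every WT saline heart, where the groups did not overlap in 4.08% of all genes tested. Of the WT Ang II hearts, 11 of 14 did so too.

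Csrp3 rose in all 4 comparisons, by at most 1.37-fold: 0.46 ± 0.07 with the transgene under saline (adjusted p = 9.80e-07) and 0.40 ± 0.07 with Ang II in WT (adjusted p = 3.87e-05). The values were 0.27 ± 0.07 with Ang II in Tg (adjusted p = 0.00691) and 0.33 ± 0.06 with the transgene under Ang II (adjusted p = 7.88e-05). The rise with Ang II in Tg hearts did not pass in females alone (0.25) or males alone (0.30).

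Fhl1 (ENSMUSG00000023092, chromosome X, 56731787 to 56793346, plus strand) encodes a protein of repeated LIM domains that binds titin and carries stretch signals. Its lowest, median and highest levels were 46.9, 54.8 and 85.3 scaled FPKM in Tg Ang II and 36.4, 46.1 and 58.8 in Tg saline hearts. They were 27.1, 32.3 and 49.7 in WT Ang II and 22.6, 28.1 and 40.6 in WT saline hearts. Under Ang II 9 of 13 Tg hearts lay above the highest WT heart, library 329, and without libraries 329 and 847 all 12 of 12 did, where the groups did not overlap in 1.16% of all genes tested.

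The transgene raised Fhl1 1.61-fold under saline (0.69 ± 0.09, adjusted p = 3.25e-08) and 1.73-fold under Ang II (0.79 ± 0.08, adjusted p = 7.09e-10, rank 16 by p). Ang II raised it 1.26-fold in Tg hearts (0.33 ± 0.08, adjusted p = 0.00947), a call lost with the block for clusters of neighbouring library numbers (0.32, adjusted p = 0.0583) and in females alone (0.20, adjusted p = 0.535). In WT hearts Fhl1 was the last gene past the threshold (0.23 ± 0.09, adjusted p = 0.04997). That call was lost in 35 of 50 fits with 1 library left out, over which the adjusted p ran from 0.0113 to 0.122, and without libraries 329 and 847 the value was 0.18 (adjusted p = 0.127).

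Fhl2 (ENSMUSG00000008136, chromosome 1, 43123074 to 43196984, minus strand), from the same family and known as a brake on growth signalling in the heart, moved little and in another way. It stood at 450, 520 and 606 scaled FPKM in Tg Ang II and 448, 523 and 583 in Tg saline hearts. In WT hearts it stood at 548, 598 and 636 with Ang II and 475, 506 and 689 with saline. The WT Ang II hearts had the highest median, and 10 of 13 Tg Ang II hearts lay below the lowest of them. No WT Ang II heart lay above the highest WT saline heart.

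Ang II raised Fhl2 1.13-fold in WT hearts (0.17 ± 0.05, adjusted p = 0.0129) and gave 0.00 ± 0.05 in Tg hearts (interval -0.09 to 0.10, adjusted p = 0.978). Under Ang II it was lower in Tg than in WT hearts (-0.20 ± 0.05, adjusted p = 0.00111), and under saline the genotypes differed by -0.03 ± 0.05 (adjusted p = 0.666). The difference of the Ang II responses, -0.17 ± 0.07, did not pass the test (adjusted p = 0.444). With counts scaled by library size alone, which put the median of all genes at 0.08 for Tg against WT hearts under Ang II, in place of -0.01, the fall was -0.11 and did not pass the test (adjusted p = 0.0851). Fhl2 overlaps Gm8210 on the other strand, which averaged 119 counts per library beside 76933 for Fhl2.

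**Figure D4:**
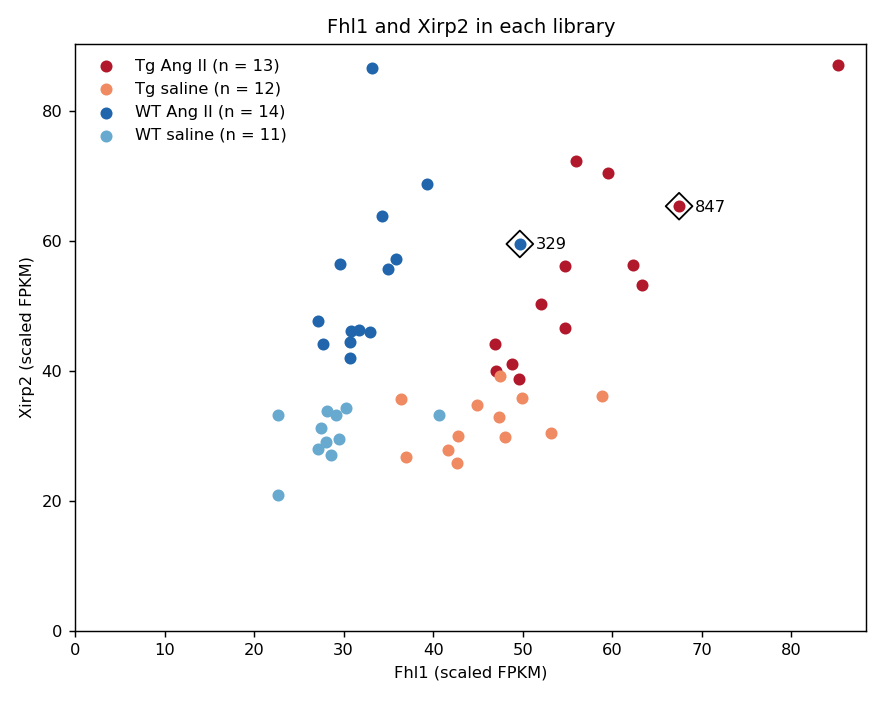
Level of Xirp2 (vertical axis) against that of Fhl1 (horizontal axis), both in scaled FPKM, in each library, coloured by group; diamonds mark libraries 329 and 847. Both Ang II groups lie high on the Xirp2 axis and both Tg groups lie to the right on the Fhl1 axis, with library 329, labelled WT, at a Fhl1 level of 49.7 beside the Tg Ang II hearts.

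Nrap (ENSMUSG00000049134, chromosome 19, 56320035 to 56390037, minus strand), the scaffold of myofibril assembly and a protein of the intercalated disc, rose in all 4 comparisons. Its lowest, median and highest levels were 127, 158 and 201 scaled FPKM in Tg Ang II and 114, 128 and 151 in Tg saline hearts. They were 111, 130 and 152 in WT Ang II and 74.6, 98.1 and 119 in WT saline hearts. The Tg saline and WT Ang II hearts covered nearly the same range, and 8 of 12 Tg saline and 11 of 14 WT Ang II hearts lay above the highest WT saline heart.

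Nrap rose by 0.44 ± 0.06 with Ang II in WT (1.36-fold, adjusted p = 2.16e-06) and by 0.41 ± 0.06 with the transgene under saline (1.33-fold, adjusted p = 1.59e-06). It rose by 0.26 ± 0.06 with Ang II in Tg (adjusted p = 0.00583) and by 0.22 ± 0.06 with the transgene under Ang II (adjusted p = 0.00268). The difference of the Ang II responses, Tg minus WT, was -0.19 ± 0.09 (adjusted p = 0.491). Nrap overlaps Habp2 and Gm17197 on the other strand, which averaged 239 and 0.8 counts per library beside 53804 for Nrap.

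Tcap (ENSMUSG00000007877, chromosome 11, 98383811 to 98384953, plus strand) was among the most abundant members and passed the test in none of the 4 comparisons. Its lowest, median and highest levels were 622, 854 and 1362 scaled FPKM in Tg Ang II and 575, 971 and 1192 in Tg saline hearts. They were 488, 912 and 1058 in WT Ang II and 594, 740 and 1305 in WT saline hearts. All groups overlapped over most of their range. The log2 fold changes were 0.04 ± 0.13 with Ang II in WT, 0.16 ± 0.13 with the transgene under saline, -0.12 ± 0.13 with Ang II in Tg and -0.00 ± 0.12 with the transgene under Ang II, with adjusted p of 0.857, 0.340, 0.618 and 0.994. The widest of their 95% intervals, -0.10 to 0.43 for the transgene under saline, reaches the size of the rise of Nrap (0.41). Scaled by library size alone, which moved the median of all genes by 0.14 in that comparison, Tcap gave 0.30 (adjusted p = 0.0453).

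None of the 9 genes passed the test for a difference of the Ang II response between Tg and WT hearts in edgeR, where 5 genes did in all (0.043%). DESeq2 called 40 genes, among them Ankrd23, and 1136 genes had an unadjusted p under 0.05. Ankrd1 and Ankrd23 ranked 41 and 44 by p in that test. In 7 of the 9 genes the value was below 0, with Xirp1 and Fhl1 the others. The median was -0.17 over the 9 genes and -0.0047 over all genes tested, whose share below 0 was not counted. The 9 genes were measured in the same hearts and are not separate observations.

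The transgene alone and Ang II alone were then set against each other directly, a comparison of Tg saline with WT Ang II hearts that was added after values had been seen. In it 4 of 9 genes were called, 2 higher and 2 lower, where 31% of all genes were called, 15.5% higher and 15.5% lower. Ankrd1 was 2.15-fold higher in Tg saline hearts (1.10 ± 0.19, adjusted p = 1.97e-05) and Fhl1 was 1.37-fold higher (0.46 ± 0.08, adjusted p = 3.01e-05). Xirp2 was lower in Tg saline hearts (-0.77 ± 0.10, adjusted p = 1.23e-07), with all 12 of them below every WT Ang II heart; the groups did not overlap in 0.533% of all genes tested. Fhl2 was lower as well (-0.20 ± 0.05, adjusted p = 0.00127). Ankrd23 (-0.02 ± 0.12), Csrp3 (0.06 ± 0.07), Nrap (-0.03 ± 0.06), Xirp1 (0.19 ± 0.10) and Tcap (0.12 ± 0.13) did not pass the test, and the intervals of the first 3 lay between -0.25 and 0.21 on the log2 scale.

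Some of these genes differed by sex. Over the 4 groups 2 of 9 were lower in females than in males, against 4.42% of all genes called and 2.56% called lower. Ankrd23 stood in females at medians of 183 in Tg Ang II, 153 in Tg saline, 138 in WT Ang II and 67.4 scaled FPKM in WT saline hearts. In males the medians were 227, 179, 170 and 117 in the same groups. Its log2 fold change, female against male, was -0.38 ± 0.08 (adjusted p = 0.00509). Nrap gave -0.15 ± 0.04 (adjusted p = 0.0421), a call lost in 25 of 50 fits with 1 library left out and with the block (-0.14, adjusted p = 0.0845). Xirp2 gave -0.22 ± 0.07 (adjusted p = 0.0628 in edgeR, 0.0363 in DESeq2), and the other 6 genes did not pass. No gene at all passed edgeR's test for an Ang II response or a transgene effect that differed by sex; DESeq2 called 2 genes in each, and 491 and 414 genes had an unadjusted p under 0.05.

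Among hearts of the same group, several of these genes varied together. Deviations of log2(scaled FPKM + 1) from the means of genotype, treatment and sex were compared over 50 libraries, with permutation tests of 100000 resamples within groups and adjustment over 45 pairs. Of the 45 pairs 16 passed, 15 of them positive, and the median r was 0.23. The share that passes among pairs of other genes was not computed, so these counts do not set the members apart. The closest pair was Xirp1 and Xirp2, with Pearson r = 0.70 and Spearman rho = 0.65 (permutation p = 1e-05 for each, the smallest these permutations can give, adjusted p = 0.0003 and 0.00045), and r = 0.65 without the 2 libraries farthest from the median of Xirp1. Ankrd23 went with Csrp3 (r = 0.61, rho = 0.55, permutation p = 2e-05 and 0.00013, adjusted p = 0.0003 and 0.00195, r = 0.56 without 2 libraries). Ankrd1 went with Csrp3 (r = 0.57, rho = 0.45, permutation p = 0.00035 and 0.00228, adjusted p = 0.00197 and 0.0114, r = 0.44 without 2 libraries).

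Fhl2 and Tcap passed with none of the other 8 tested genes, and Tcap passed with Ankrd2 alone (r = -0.36, rho = -0.35, permutation p = 0.0151 and 0.0179, adjusted p = 0.0454 and 0.0537, r = -0.31 without 2 libraries). Without libraries 329 and 847, Xirp1 with Xirp2 gave r = 0.73, Ankrd23 with Csrp3 gave r = 0.55 (adjusted p = 0.00108), and Ankrd1 with Csrp3 gave r = 0.44 (adjusted p = 0.00873). Csrp3 with Fhl1 fell short without them (r = 0.22, adjusted p = 0.238), against r = 0.35 with them (rho = 0.24, permutation p = 0.0172 and 0.116, adjusted p = 0.0485 and 0.250).

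**Figure D5:**
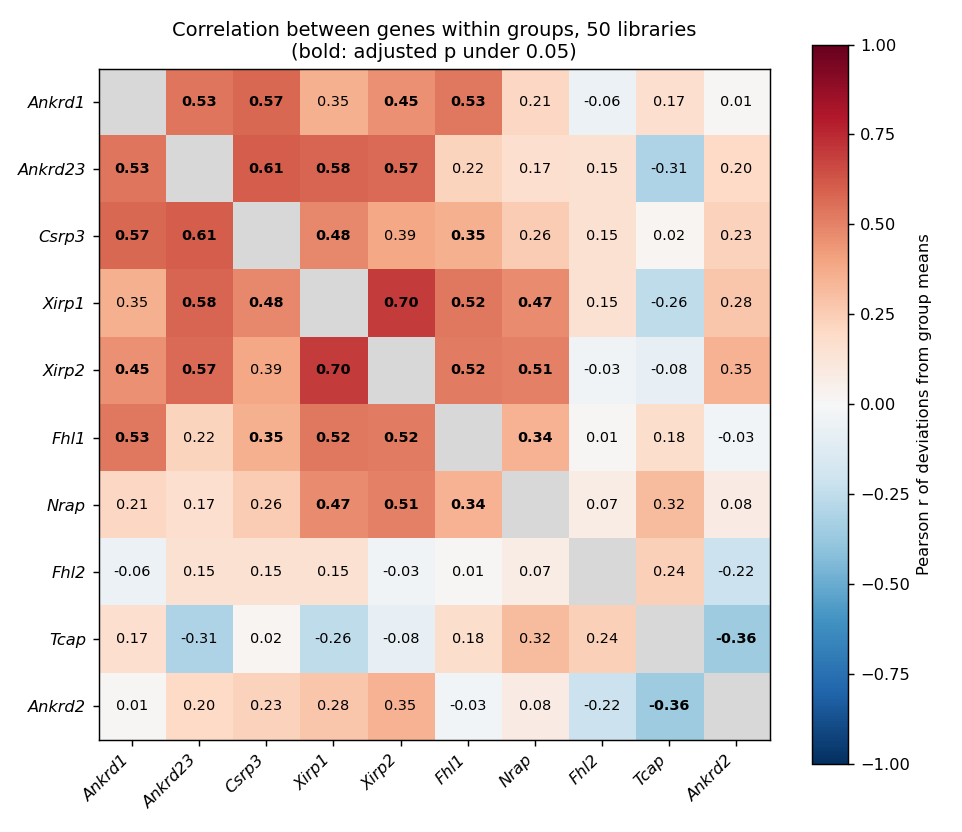
Pearson r of each pair of the 10 genes over deviations from group means in 50 libraries, from -1 (blue) to 1 (red), with bold figures where the adjusted p was under 0.05. All pairs among Ankrd1, Ankrd23, Csrp3, Xirp1, Xirp2, Fhl1 and Nrap have positive values, though not all of them are bold. Fhl2, Tcap and Ankrd2 each have values on both sides of 0 with these genes, and Ankrd2 reaches 0.35 with Xirp2.

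Nppa, the atrial natriuretic peptide gene that the ventricle makes under load, was measured as a load marker outside the set. Over the same deviations, with adjustment over 10 genes, Ankrd1 followed Nppa most closely (r = 0.82, rho = 0.74, permutation p = 1e-05 for each, adjusted p = 0.0001 for each, r = 0.74 without 2 libraries). Ankrd23 (r = 0.57, rho = 0.51, permutation p = 0.00019 and 0.00072, adjusted p = 0.00095 and 0.0036, r = 0.50 without 2 libraries) and Csrp3 (r = 0.57, rho = 0.42, permutation p = 0.0005 and 0.0045, adjusted p = 0.00167 and 0.015, r = 0.45 without 2 libraries) came next. Xirp2 also passed (r = 0.38, rho = 0.35, permutation p = 0.0227 and 0.0258, adjusted p = 0.0455 and 0.0646, r = 0.33 without 2 libraries). Fhl1 passed (r = 0.41, rho = 0.32, permutation p = 0.00665 and 0.0341, adjusted p = 0.0166 and 0.0683, r = 0.23 without 2 libraries) only with libraries 329 and 847 included (r = 0.28 without them, adjusted p = 0.119). Xirp1 (r = 0.31, rho = 0.20, adjusted permutation p = 0.115 and 0.355) and Ankrd2 (r = 0.11, rho = 0.15, adjusted permutation p = 0.800 and 0.491) did not pass. For Nrap, Tcap and Fhl2, r lay between -0.038 and 0.023.

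In the 25 Tg hearts, more Larp6 went with less Ankrd1 (r = -0.50, rho = -0.58, permutation p = 0.00791 and 0.00415, adjusted p = 0.0395 and 0.0415, r = -0.52 without 2 libraries). Xirp2 gave r = -0.48 and rho = -0.50 (permutation p = 0.00704 and 0.0137, adjusted p = 0.0395 and 0.0686, r = -0.57 without 2 libraries). These rest on the scaling: with FPKM as deposited, r was -0.29 for Ankrd1 and -0.22 for Xirp2 and none of the 10 genes passed. The other 8 genes passed in neither.

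By the same deviations, the 3 tested genes outside the set most like each member were found among all genes tested, as a description with no test. For Ankrd1 they were Ccn2, a secreted connective tissue growth factor (r = 0.86), Rtn4 (0.86) and the Z-disc gene Synpo2l (0.85), and for Ankrd23 they were Rcan1, a calcineurin regulator (0.84), Fbxo40 (0.80) and Tnfrsf12a (0.79). Xirp1 was closest to Nuak1 (0.79), Inpp5j (0.78) and Dusp27 (0.78), and Xirp2 to Trak2 (0.76), Ehbp1l1 (0.75) and Pfkp (0.75). Csrp3 was closest to Cox19 (0.76), Tax1bp3 (0.73) and Synpo2l (0.71), and Fhl1 to Clic5 (0.77), Gnao1 (0.74) and Ppm1e (0.73). Nrap was closest to Myom1, a protein of the sarcomere's M-band (0.78), Actn2, the actinin of the Z-disc (0.77), and Sptb (0.75). Fhl2 was closest to Actc1, cardiac actin (0.67), Ak1 (0.64) and Asb2 (0.62). Tcap stood apart in its company: its closest genes were Dbp, a transcription factor of the circadian clock's output (0.77), Pik3ip1 (0.76) and Ciart, a clock repressor (0.73). Each r is over 50 libraries that share scaling and library preparation. Libraries 329 and 847 were included under their labels, and r without them was not computed here.

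Genes of other lists were counted in the same comparisons, in which 18.6% of all genes tested were called with Ang II in WT, 40.6% with the transgene under saline, 8.93% with Ang II in Tg and 32.8% with the transgene under Ang II. No list was tested against the other genes. Of 24 other Z-disc genes tested, 12 rose and none fell with Ang II in WT hearts (list median 0.14), and 11 rose and none fell with Ang II in Tg hearts (0.16), or 50.0% and 45.8% of the list. That list also holds Myom1 of the M-band, so its counts are not of Z-disc genes alone. Genes named from this and the next lists are among the 4 of a list with the smallest p in a comparison. With Ang II in WT the calcineurin-binding gene Myoz2 was at 237 ± 18.8 scaled FPKM in Ang II and 182 ± 9.93 in saline hearts (0.39 ± 0.05, adjusted p = 2.63e-07), and desmin, Des, at 481 ± 70.6 in Ang II and 349 ± 29.6 in saline hearts (0.46 ± 0.07; SD, n = 14 and 11). Under saline 9 rose and 4 fell with the transgene (0.10), led by Pdlim3 (1.54 ± 0.13, 5.38 ± 0.75 scaled FPKM in Tg and 1.85 ± 0.29 in WT hearts) and Synpo2l (1.56 ± 0.19). Under Ang II 7 rose and 3 fell with the transgene (0.01), and Myoz2 was among those that fell (-0.40 ± 0.05). The called share of the list with the transgene was 54.2% under saline and 41.7% under Ang II.

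Titin and its other partners, 14 genes tested, showed 6 that rose and none that fell with Ang II in WT, among them the small heat shock gene Hspb7 (0.38 ± 0.07). With the transgene under saline 6 rose and 2 fell, with Ang II in Tg 1 rose, the stretch-linked Smpx (0.26 ± 0.05), and with the transgene under Ang II 2 rose and 2 fell. The counts that rose without libraries 329 and 847 were 2 with Ang II in Tg and 3 with the transgene under Ang II. Adhesion partners at the intercalated disc, 18 genes, had 4 that rose and 1 that fell with Ang II in WT, 8 and 1 with the transgene under saline, 3 and 1 with Ang II in Tg and 6 and 2 with the transgene under Ang II. Among them Enah, an actin-elongation factor, rose in all 4 comparisons, by 0.62 ± 0.10, 0.90 ± 0.10, 0.51 ± 0.10 and 0.79 ± 0.09 in that order. The other LIM-domain genes, 18 tested, split between 3 up and 2 down, 5 up and 6 down, none up and 1 down, and 3 up and 4 down in the same order, with 2 up in the first without libraries 329 and 847.

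Genes of 2 pathways known to answer mechanical load were counted as well. Of 18 YAP and TEAD pathway genes, TEAD being the factor family that binds the MCAT motif, 3 rose and 6 fell with Ang II in WT (2 and 3 without libraries 329 and 847). Under saline 5 rose and 4 fell with the transgene, with Ang II in Tg 2 rose and 1 fell, and with the transgene under Ang II 7 rose and 1 fell. The called share of this list was 50.0% with Ang II in WT, 50.0% with the transgene under saline, 16.7% with Ang II in Tg and 44.4% with the transgene under Ang II. Over all genes tested it was 18.6%, 40.6%, 8.93% and 32.8% in that order. Ccn2, a target of the pathway, stood at 84.3 ± 20.6 scaled FPKM in Tg Ang II, 64.2 ± 21.0 in Tg saline, 29.3 ± 14.8 in WT Ang II and 14.4 ± 3.22 in WT saline hearts. It rose by 2.16 ± 0.20 with the transgene under saline and by 1.04 ± 0.19 with Ang II in WT, and gave 0.41 ± 0.18 with Ang II in Tg (adjusted p = 0.153). Of 13 SRF and MRTF pathway genes, 3 rose and 1 fell with Ang II in WT, 3 rose with the transgene under saline, 2 rose and 1 fell with Ang II in Tg, and 4 rose and 1 fell with the transgene under Ang II (none fell without libraries 329 and 847). Acta1, skeletal actin and a target of serum response factor, followed Ang II in both genotypes as Xirp2 did, by 1.74 ± 0.24 in WT and 1.64 ± 0.23 in Tg hearts, with 0.12 ± 0.23 for the transgene under saline.

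Markers of other cells moved with the transgene as well. All 9 fibroblast markers and all 8 macrophage markers rose with the transgene under saline, while 7 of 8 endothelial markers fell and, of 9 smooth muscle and mural markers, 2 rose and 6 fell. The summed fibroblast markers ranged from 326 to 638 scaled FPKM in Tg Ang II, 487 to 739 in Tg saline, 298 to 472 in WT Ang II and 382 to 500 in WT saline hearts. The summed macrophage markers ranged from 115 to 244 in Tg Ang II, 150 to 424 in Tg saline, 81.1 to 230 in WT Ang II and 97.4 to 126.5 in WT saline hearts. With Ang II in WT, 3 fibroblast markers rose and 1 fell, 1 macrophage marker rose, 1 endothelial marker fell and 3 mural markers fell. None of the fibroblast markers fell there without libraries 329 and 847. With Ang II in Tg, 1 fibroblast marker rose and 4 fell, and 1 mural marker fell (2 without libraries 329 and 847). With the transgene under Ang II, 6 fibroblast and 6 macrophage markers rose, 7 endothelial markers fell, and 2 mural markers rose and 5 fell. None of 5 red blood cell markers passed in these 4 comparisons, and their sums ran from 96.2 to 2007 scaled FPKM over the 50 hearts. The 3 atrial markers Sln, Myl7 and Myl4 each averaged under 1 scaled FPKM over the 50 hearts and summed to at most 1.17 in any heart. Of 12 skeletal muscle markers 11 averaged under 1 over the 50 hearts, among them Myh1, Myh4, Tnnt3 and Pvalb.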

How the data were processed

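Poly(A) RNA of 50 left ventricles was sequenced by a stranded protocol, per the labels' protocols. The deposited table gives raw counts and FPKM per gene and library, made by the authors. The submitters' processing notes name cutadapt 1.9, FastQC, HISAT2 2.0.4 and StringTie 1.3.4d. The counting tool, its strand setting and the genome build are not given in the sources used here. Of 35717 genes, 35599 matched GENCODE M21 by identifier. The start and end were the same in 87.6% of the genes and in 8 of the 10 members, all but Ankrd1 and Xirp2. The members and the gene lists were chosen with earlier results of these data known, and libraries were grouped by their titles.

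Genes that reached a FPKM of 1 in 5 or more libraries entered the test of edgeR 4.0.16 (R 4.3.3), a quasi-likelihood test on the deposited counts. Library scaling in the test was by median of ratios of the counts. The fit had 8 means of genotype, treatment and sex, contrasts that weight the sexes equally and Benjamini-Hochberg adjustment. The scaled FPKM levels used median-of-ratios factors of the FPKM values (0.776 to 1.14). Intervals of fold changes are at 95%. The code was tested on simulated data. Named list genes are the 4 with the smallest p in each list and comparison, and likeness names the 3 genes with the highest r. Alternatives were TMM or library size scaling, no filter, DESeq2 1.42.0, limma 3.58.1 on log2(scaled FPKM + 1) or + 0.1, a fit without libraries 329 and 847, each library left out, 4 means without sex, each sex alone and a block for 10 clusters of neighbouring library numbers. Correlations used SciPy 1.17.1 and NumPy 2.4.6, and figures matplotlib 3.10.9. Total counts were 53877400 to 91579300 per library, and no pair of libraries of a group agreed within sampling noise.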

Additional observations from a re-analysis of the deposited data

Results flagged for a closer look

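Mybpc2, which encodes a fast skeletal muscle form of myosin-binding protein C, was the 1 skeletal muscle marker of 12 that passed the filter on low values, and its response to Ang II differed between the genotypes in the fit with 8 means. Its lowest, median and highest levels were 6.98, 9.87 and 13.6 scaled FPKM in Tg Ang II and 8.11, 10.4 and 12.9 in Tg saline hearts. They were 4.14, 6.96 and 11.6 in WT Ang II and 2.73, 3.49 and 6.53 in WT saline hearts. The log2 fold change with Ang II was -0.02 ± 0.12 in Tg (adjusted p = 0.953 in edgeR) and 0.93 ± 0.13 in WT hearts (adjusted p = 1.17e-06). The difference, Tg minus WT, was -0.95 ± 0.17 (adjusted p = 0.0115), and -0.85 (adjusted p = 0.0351) without libraries 329 and 847. It did not pass with the block for clusters of neighbouring library numbers (-0.81, adjusted p = 0.214), with 4 means without sex (-0.90, adjusted p = 0.0572) or in males alone (-0.75, adjusted p = 0.346). With the transgene under saline Mybpc2 rose by 1.45 ± 0.13. The other 11 skeletal muscle markers averaged under 1 scaled FPKM over all hearts.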

How the results depend on the processing

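Of 335 alternative values of called members' results 301 kept their direction and side of the threshold and 34 fell short; with 1 library left out, 1479 of 1550 did and 71 fell short. No called value changed sign. Lost calls not given above were Fhl1 with Ang II in WT without the filter, with the block, without sex as a term and in each sex; Fhl2 with Ang II in WT and Xirp1 with the transgene under saline in each sex; and Xirp1 with Ang II in Tg without the filter, with the block and in females. Nrap with Ang II in Tg was lost in females. Ankrd23 with the transgene under Ang II was lost without the filter, without sex as a term and in each sex, Xirp1 in females and Nrap in each sex. Between Tg saline and WT Ang II, Ankrd1 and Fhl1 were lost in males, and Fhl2 in females and with library size scaling (-0.13, adjusted p = 0.0588), where Xirp1 was called higher (0.26, adjusted p = 0.0469). Nrap by sex was lost with library size scaling (-0.09), without the filter and with the block. Single sexes have fewer samples, and the cause of the other losses was not tested.

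The number of genes called with Ang II in WT (2160) was 665 in females and 590 in males. With the transgene under saline (4720) it was 3106 and 2159, under Ang II (3814) 2181 and 2015, and between Tg saline and WT Ang II (3601) 2238 and 915, in that order of sexes. With Ang II in Tg (1038) it was 634 without the filter, 598 with the block, 6 in females and 516 in males. For the difference of the Ang II response (5) it was 8 with library size scaling, 2 without the filter, 40 with DESeq2, 3 with limma at either pseudocount, 3 without libraries 329 and 847, 0 with the block or with 4 means, and 1 in each sex. Between females and males (514) it was 1223 with library size scaling and 321 with the block. DESeq2 called 2 genes for each difference by sex, and with FPKM as deposited 0 correlations with Larp6 passed.

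Library size scaling also moved the split of higher and lower calls: 4868 and 919 with the transgene under saline, against 2376 and 2344; 1987 and 477 with Ang II in WT, against 1129 and 1031; 3372 and 927 with the transgene under Ang II, against 1905 and 1909; 2985 and 897 between Tg saline and WT Ang II, against 1801 and 1800; 1111 and 112 by sex, against 216 and 298; and 0 and 8 for the difference of the Ang II response, against 1 and 4.

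With 1 library left out, the numbers ran from 1790 to 2382 with Ang II in WT, 4360 to 4791 with the transgene under saline, 656 (without Tg Ang II library 715) to 1128 with Ang II in Tg, and 3416 to 4097 with the transgene under Ang II. They ran from 2 to 21 for the difference of the Ang II response, 3291 to 3786 between Tg saline and WT Ang II, 382 to 635 by sex, and stayed at 0 for both differences by sex.

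Values that changed sign were not called in either fit. Library size scaling gave Fhl2 0.10 with the transgene under saline, Tcap 0.090 with it under Ang II, and Ankrd23 0.045 and Nrap 0.044 between Tg saline and WT Ang II. Females alone gave Tcap -3.81e-05 with Ang II in WT, 0.083 with Ang II in Tg, 0.10 with the transgene under Ang II and 0.083 for the difference of the Ang II response. They gave Fhl2 -0.031 with Ang II in Tg, Xirp2 -0.11 with the transgene under Ang II and Ankrd23 0.072 between Tg saline and WT Ang II. Males alone gave Xirp2 0.094 for the difference of the Ang II response and Csrp3 -0.021 between Tg saline and WT Ang II. The block gave Xirp2 0.014 for the difference of the Ang II response, Nrap 0.00085 between Tg saline and WT Ang II and Fhl2 -0.0050 by sex. Without libraries 329 and 847 Tcap gave 0.027 with the transgene under Ang II and Ankrd23 0.035 between Tg saline and WT Ang II.

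Among correlations, r of Ankrd1 with Ankrd2 was -0.045 at a pseudocount of 0.1. Without libraries 329 and 847 it was 0.020 for Ankrd1 with Fhl2, 0.024 for Ankrd2 with Fhl1, -0.025 for Csrp3 with Tcap, 0.048 for Nppa with Fhl2 and -0.023 for Nppa with Nrap. With FPKM as deposited these were 0.074, 0.078, -0.013 and 0.053 for the first 4, and 0.16 for Xirp2 with Fhl2. Larp6 then gave 0.097 with Xirp1, 0.055 with Csrp3, 0.16 with Fhl2, 0.15 with Nrap and 0.088 with Tcap.

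Leaving out 1 library turned the sign of Ankrd23 (-0.087 to 0.040) between Tg saline and WT Ang II, Fhl2 with Ang II in Tg (-0.021 to 0.023), with the transgene under saline (-0.049 to 0.026) and by sex (-0.0093 to 0.031), and Tcap with Ang II in WT (-0.0046 to 0.12) and with the transgene under Ang II (-0.093 to 0.036). It also did so for Xirp1 by sex (-0.013 to 0.050) and Xirp2 with the transgene under Ang II (-0.036 to 0.092).

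No paired analysis was possible because each library number occurs once. Counting error was at most 0.92% of the mean count in the 9 tested genes and 23.2% in Ankrd2. List counts not given above moved by 1 without libraries 329 and 847: 8 other Z-disc genes and 7 macrophage markers rose with the transgene under Ang II, and 9 adhesion partners rose and 2 fell with it under saline.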
